A study of Mus musculus with 6 samples.

Results

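The nuclear-encoded genes of the mitochondrial respiratory chain were followed in mouse Th1 cells cultured with or without ALX-5407. Members were the protein-coding genes whose symbol begins with Nduf, Uqcr, Atp5 or Cox4 to Cox8, or is Sdha, Sdhb, Sdhc or Sdhd, and 94 of the 54532 genes counted met this rule. They were divided into 36 subunit genes of complex I, 8 complex I assembly factors, 4 genes of complex II, 8 of complex III, 12 of complex IV, 18 of complex V and 8 tissue isoforms. The rule uses gene names and biotype alone.

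The Th1 group was 3 libraries of CD4+ T cells from spleens of male C57BL/6 mice, polarized for 3 days with antibodies to CD3 and CD28, IL-2, IL-12 and antibody to IL-4, with 0.1% DMSO as vehicle. The ALX-5407 group was 3 libraries of the same cells, polarized alike, with ALX-5407 at 500 nM. The study reports falling cell viability at this dose and more apoptosis in treated cells, and the part of this in the results was not tested. ALX-5407 inhibits the glycine transporter GlyT1. The series' design text gives 72 h of exposure and the study's methods 24 h, and no source used here says whether the 3 cultures of a group came from separate mice, so p-values measure the spread between these cultures.

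The respiratory chain passes electrons from NADH through complex I, and from succinate through complex II, to coenzyme Q, then through complex III to cytochrome c and through complex IV to oxygen. Complexes I, III and IV pump protons across the inner mitochondrial membrane, and complex V, the ATP synthase, uses their return to make ATP. Complex II is encoded in the nucleus alone, whereas the others also hold subunits made from mitochondrial DNA. Activated T cells use both glycolysis and respiration, and several complex IV subunits exist as ubiquitous and as tissue isoforms, of which COX6A2 and COX7A1 are best known from heart and skeletal muscle.

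Library totals were 30801753 to 36727788 counts. The members together took 0.846% to 0.886% of all counts in the Th1 libraries and 0.754% to 0.819% in the ALX-5407 libraries. T cell markers were high in every library, with a summed level of 2095 to 2368 CPM (counts per 1000000 counts) in Th1 and 1668 to 1763 CPM in ALX-5407 libraries, and Cd3d, Cd3g, Cd4 and Cd2 were lower and Tbx21 higher with ALX-5407. The 5 myeloid markers summed to 15.3 to 20.9 CPM against 5.32 to 6.30 CPM, nearly all of it Cd68. The 3 neutrophil markers summed to 69.8 to 75.3 CPM against 24.1 to 31.6 CPM, all of it Ly6g, with S100a8 and S100a9 at 0. The 4 B cell markers summed to 5.52 to 6.73 CPM against 7.42 to 10.4 CPM, and the CD8 pair to 9.25 to 9.59 CPM against 6.71 to 8.87 CPM. Natural killer and erythroid markers summed to under 0.780 CPM in every library. The part of these marker levels in the results was not tested, and in bulk RNA fewer cells of a type and less RNA per cell cannot be told apart.

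For sequence context, 74 of the 93 member symbols were found in a RefSeq promoter table (GRCm38.p6, 250 bases before to 50 after the gene start). Letters for 3 factors known to act on respiratory chain genes were searched on both strands: GCATGCGC for NRF1, CCGGAAG for ETS factors such as GABP, and AAGATGGCG for YY1. They were found at 12, 18 and 8 of the 74 members (16.2%, 24.3% and 10.8%), against 3.05%, 9.93% and 1.64% of all 27025 genes in the table. Among the 38 members in the table that were lower with ALX-5407 the shares were 13.2%, 23.7% and 10.5%, and among the 32 that were not called 15.6%, 25% and 12.5%. A match of letters is a description and not a bound site. The letters marked below were picked for each gene. Sdhb also holds the ETS letters, 6 bases after its RefSeq start and outside the stretch printed. The 4 stretches of 30 bases below show matches at the most clearly raised and lowered genes of complexes II, III and IV, read along the gene's own strand, with the matched letters in capitals (NRF1 in Sdhb and Uqcrc1, where a pair of overlapping matches reads on both strands, and the reverse complement of the ETS letters in Uqcrh and Cox6b1). They lie at chr4:140961206-140961235 (plus strand), chr9:108936668-108936697 (plus), chr4:116075063-116075092 (minus) and chr7:30626125-30626154 (minus). The matches begin 54 bases before the RefSeq start of Sdhb, 30 after that of Uqcrc1, 10 before that of Uqcrh and 28 before that of Cox6b1. The deposited gene coordinates put the starts of Sdhb and Cox6b1 elsewhere, at 140961203 and 30626151. By these, both matches lie after the start, inside the gene.
Sdhb: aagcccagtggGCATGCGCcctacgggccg
Uqcrc1: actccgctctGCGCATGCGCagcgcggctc
Uqcrh: gagtatgccgcaCTTCCGGccaggtcgccg
Cox6b1: ctcctctcgcagCTTCCGGccagtcggaat

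With ALX-5407, many subunit genes across complexes I to V were lower, short and longer ones among them, while a few genes were higher. Of the 94 members, 89 had enough counts to be tested. Of these, 45 were lower and 4 were higher at an adjusted p under 0.05, and 40 were not called. Over all 15938 genes tested, 23.2% were lower and 24.5% were higher. The 4 higher genes were the tissue isoform Cox6a2, the complex III core protein gene Uqcrc1, the iron-sulphur subunit gene Sdhb of complex II and, just inside the threshold, Atp5a1 for the alpha subunit of ATP synthase. Only 4 members also changed by over 1 on the log2 scale (Cox6a2 up, Cox7a1, Cox4i2 and Atp5k down), beside 10% of all genes tested. The median log2 fold change of the tested members was -0.26, against 0.0053 for all genes tested and 0.052 for the 12441 protein-coding genes tested.

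The separation of libraries gave a like picture. The 3 ALX-5407 values lay below all 3 Th1 values for 42 members and above them for 4, beside 27.1% and 28.4% of all genes tested. ALX-5407 replicate 3 was the lowest of its group for 72 of the 89 tested members, against 9 for replicate 1 and 8 for replicate 2. Without that library 39 members were lower and 5 higher, 2 were past the fold threshold, and the median was -0.20 (-0.14 in complex I). Without Th1 replicate 3, 48 members were lower and 7 higher, the latter being the 4 genes above with Atp5j, Ndufa8 and Ndufs1.

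The scale mattered for the count. Dividing by summed counts per base, as TPM (transcripts per 1000000 transcripts) does, moved the median of all genes to 0.18. On that scale 25 members were lower, all among the 45, and 18 were higher, with 14.8% and 35.9% of all genes tested, and the members' median was -0.085. Ndufs1, Ndufv1, Sdha and Atp5b, which were not called by CPM, were among those 18 (adjusted p = 0.00384, 0.0351, 0.00755 and 0.0279), as were 5 of the 7 complex I core genes. Below, CPM uses library sizes scaled by the trimmed mean of M-values, and TPM serves only to compare levels between genes.

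**Figure D1:**
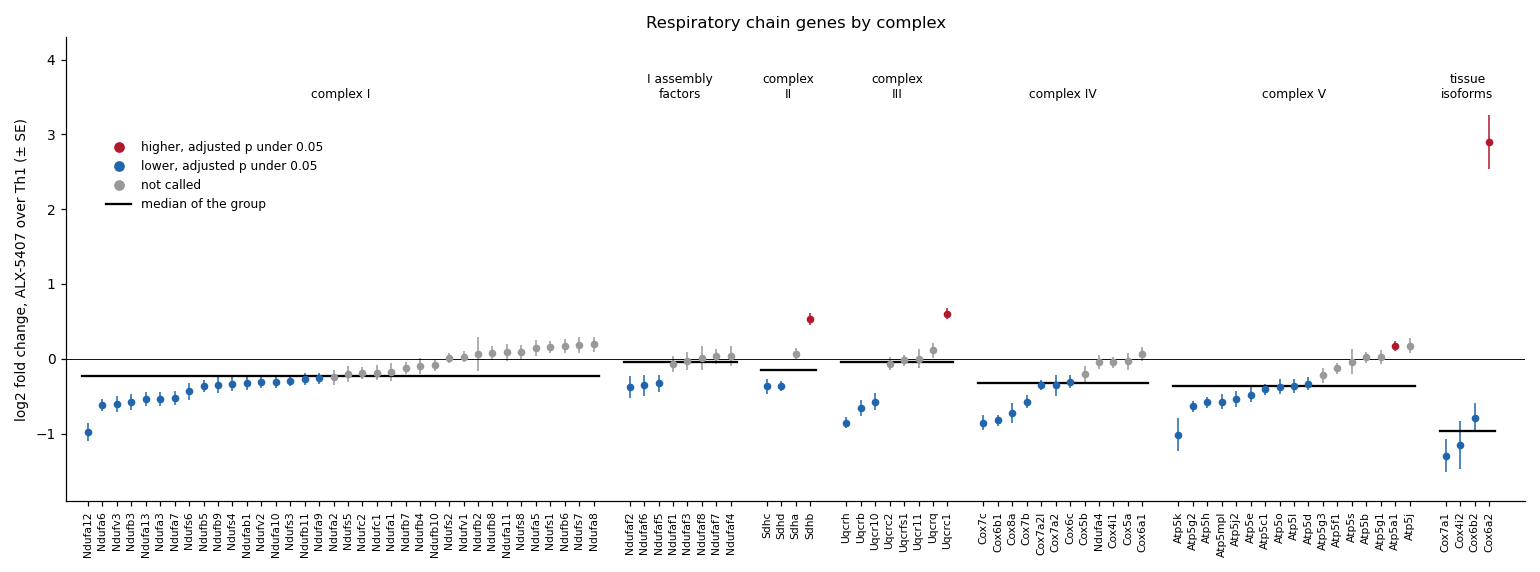
Log2 fold change of the 89 tested members (ALX-5407 over Th1, vertical axis, bars are SE), sorted within complex I, complex I assembly factors, complexes II to V and tissue isoforms. Blue points are lower and red points higher at an adjusted p under 0.05, grey points were not called and black lines are group medians. Cox6a2 stands alone at 2.89 and the medians of complexes IV and V lie lowest among the complexes.

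Complex I oxidizes NADH. None of its 36 subunit genes was higher and 17 were lower, with a median log2 fold change of -0.23. Of the 7 core subunit genes, which carry the flavin, the iron-sulphur clusters and the quinone site, 2 were lower (Ndufv2 at -0.32 and Ndufs3 at -0.30). The median of the 7 was 0.029. On the TPM scale 5 of these 7 were higher and 0 lower, and of all 36 subunit genes 9 were higher and 7 lower. The 29 accessory subunit genes held 15 lower and a median of -0.26. Ndufv1, which binds NADH, was at 73.1, 69.9 and 69.0 CPM in Th1 and 76.5, 72.6 and 67.3 CPM in ALX-5407 libraries, and the groups overlapped. Ndufs1, the largest iron-sulphur subunit, had a log2 fold change of 0.16 (SE 0.080, adjusted p = 0.110).

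The 3 complex I genes with the smallest p were the accessory subunits Ndufa12, Ndufa6 and Ndufa7. Ndufa6 was at 90.8, 83.2 and 82.0 CPM in Th1 and 55.1, 61.5 and 50.1 CPM in ALX-5407 libraries, with no overlap, a log2 fold change of -0.62 (SE 0.084) and an adjusted p of 1.62e-05. Ndufa7 fell from 75.8 ± 6.71 to 52.8 ± 6.25 CPM (SD, n = 3), or by 0.52 on the log2 scale (SE 0.093, adjusted p = 0.000226). Ndufa12 was at 33.8, 31.7 and 43.1 CPM in Th1 and 20.8, 17.7 and 16.3 CPM in ALX-5407 libraries, a log2 fold change of -0.98 (SE 0.12, adjusted p = 5.67e-06). This last value is uncertain. A near-identical copy covers 71.0% of the Ndufa12 transcript, and that copy took 1095, 1101 and 302 counts in the Th1 and 1027, 1087 and 740 counts in the ALX-5407 libraries. With the copy added, the log2 ratio of mean CPM was -0.48 in place of -0.98.

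The 8 complex I assembly factors, which help to build the complex and are not part of it, had a median log2 fold change of -0.048, which was positive on the TPM scale (0.13). Ndufaf5 was lower (15.9 ± 1.05 against 12.7 ± 0.989 CPM, adjusted p = 0.0225), a call that was lost without Th1 replicate 1 (adjusted p = 0.0847) or ALX-5407 replicate 1 (0.110) or 3 (0.0501). Ndufaf2 (adjusted p = 0.0495) and Ndufaf6 (adjusted p = 0.0495) were at the threshold, with overlapping groups. Both calls were lost without Th1 replicate 1 (adjusted p = 0.0507 and 0.105), Th1 replicate 2 (0.322 and 0.115) or ALX-5407 replicate 2 (0.122 and 0.177), that of Ndufaf2 also without ALX-5407 replicate 3 (0.170) and that of Ndufaf6 without ALX-5407 replicate 1 (0.199). The other 5 were not called, and without Th1 replicate 3 the median of the 8 was 0.035. The calls of Ndufaf5 and Ndufaf6 were also lost with a term for gene length (adjusted p = 0.135 and 0.466), with length and GC terms (0.221 and 0.432) and on the TPM scale (0.319 and 0.360), and that of Ndufaf2 with limma-voom (0.0620) and on the TPM scale (0.277).

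Complex II, succinate dehydrogenase, is also an enzyme of the citric acid cycle, and its 4 genes were called in both directions. Sdhb, whose product carries the iron-sulphur clusters (chr4:140961203-140979193, plus strand), was at 71.3, 71.0 and 84.0 CPM in Th1 and 115, 105 and 107 CPM in ALX-5407 libraries. Every ALX-5407 library lay above every Th1 library, with a log2 fold change of 0.53 (SE 0.081, adjusted p = 5.11e-05). The membrane anchors were lower. Sdhd fell from 120, 116 and 119 CPM to 94.9, 93.6 and 87.0 CPM, with no overlap and a log2 fold change of -0.36 (SE 0.070, adjusted p = 0.000414). Sdhc was at 114, 110 and 82.5 CPM in Th1 and 77.0, 83.5 and 76.0 CPM in ALX-5407 libraries, so that Th1 replicate 3 lay within the ALX-5407 range, with a log2 fold change of -0.37 (SE 0.10, adjusted p = 0.00602). The call of Sdhc was not kept on the TPM scale (adjusted p = 0.105), nor that of Sdhd with a term for gene length (adjusted p = 0.0602), whereas Sdhb was called in every alternative run. The flavoprotein gene Sdha, which binds succinate, was at 229 to 244 CPM in Th1 and 243 to 250 CPM in ALX-5407 libraries and was not called (adjusted p = 0.419). The log2 ratio of Sdhb to Sdhd went from -0.65 ± 0.13 to 0.24 ± 0.068 and that of Sdhb to Sdhc from -0.42 ± 0.39 to 0.47 ± 0.12 (SD, n = 3), in both cases with no overlap. These ratios do not depend on the scaling of the libraries, but a term for gene length changes them. With that term the log2 fold changes were 0.60 for Sdhb, -0.16 for Sdhd and -0.40 for Sdhc. The pairs were chosen after the values were seen and no test is given.

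Complex III passes electrons from coenzyme Q to cytochrome c. Its 8 genes had a median of -0.046 (0.13 on the TPM scale and 0.0029 without Th1 replicate 3), and members were called in both directions. Uqcrc1, a core protein facing the matrix (chr9:108936633-108949623, plus strand), was at 111, 95.7 and 100 CPM in Th1 and 156, 151 and 158 CPM in ALX-5407 libraries. The groups were well apart, at a log2 fold change of 0.60 (SE 0.074, adjusted p = 5.64e-06). Uqcrh, the small hinge protein beside cytochrome c1 (chr4:116066965-116075071, minus strand), was at 172, 184 and 192 CPM in Th1 and 105, 101 and 96.0 CPM in ALX-5407 libraries. This was the smallest p of all members, with a log2 fold change of -0.86 (SE 0.073, adjusted p = 1.21e-07). The log2 ratio of Uqcrc1 to Uqcrh went from -0.84 ± 0.18 to 0.62 ± 0.086 (SD, n = 3), again a pair chosen after the values were seen.

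The small subunit genes Uqcrb and Uqcr10 were lower as well, at log2 fold changes of -0.66 (adjusted p = 8.86e-05) and -0.57 (adjusted p = 0.000452). Uqcrb shares 62.8% of its transcript with copies, and with their counts added its log2 ratio was -0.60. The other 2 accessory genes, Uqcrq and Uqcr11, had log2 fold changes of 0.11 and 0.0028 and were not called. Uqcr11 was higher with a term for gene length (0.30, adjusted p = 0.0425), also with a replicate block added. Uqcrq was higher with the length term and the block together, on the TPM scale and without ALX-5407 replicate 3. Uqcrfs1, the Rieske iron-sulphur protein, was at 127, 109 and 133 CPM in Th1 and 122, 121 and 120 CPM in ALX-5407 libraries, and the groups overlapped (adjusted p = 0.833). Cyc1, which encodes cytochrome c1 and is named outside the rule, was higher, at 70.9 ± 2.65 against 104 ± 7.09 CPM, a log2 fold change of 0.55 (SE 0.075, adjusted p = 1.72e-05).

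**Figure D2:**
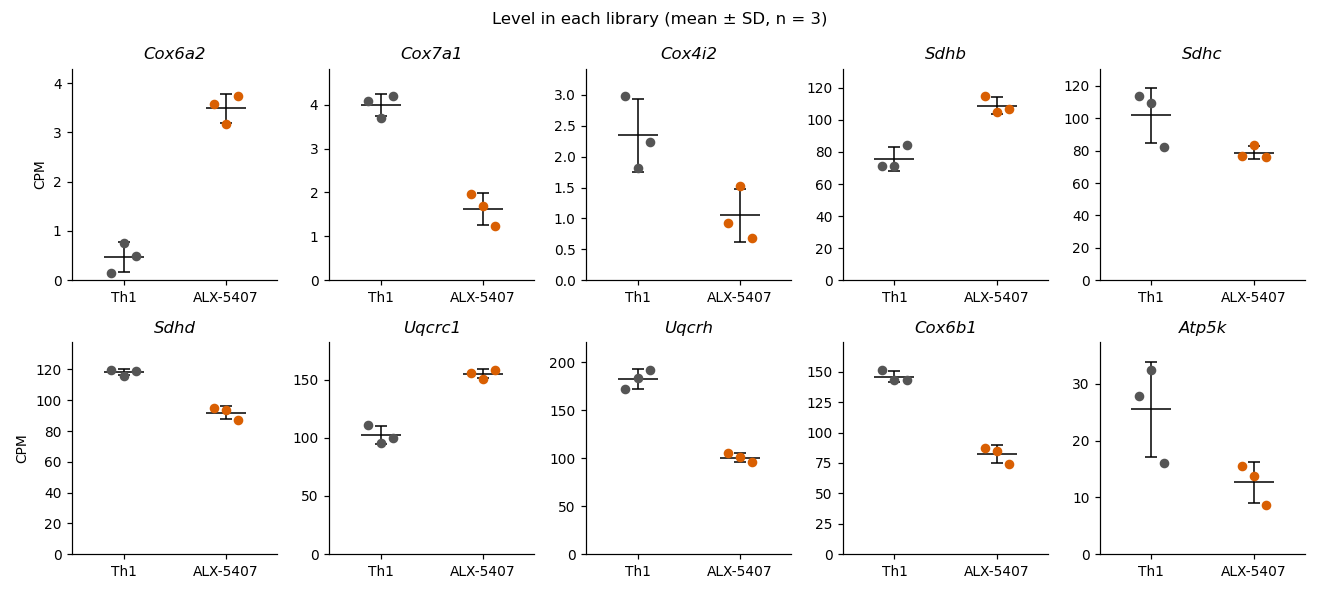
Level in CPM (vertical axes from 0) of 10 members in each of 3 Th1 libraries (grey) and 3 ALX-5407 libraries (orange), with mean and SD as black marks. Cox6a2, Sdhb and Uqcrc1 lie higher with ALX-5407 with no overlap, Sdhc overlaps through Th1 replicate 3, and the other 6 lie lower with no overlap.

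Complex IV reduces oxygen. Of its 12 ubiquitous genes, 7 were lower and none was higher, with a median log2 fold change of -0.33. The lowest were Cox7c, Cox6b1 and Cox8a, all small subunits around the catalytic core. Cox6b1, which faces the intermembrane space (chr7:30616861-30626151, minus strand), was at 151, 143 and 143 CPM in Th1 and 87.6, 85.2 and 74.2 CPM in ALX-5407 libraries, a log2 fold change of -0.83 (SE 0.077, adjusted p = 3.15e-07). Cox7c fell from 144, 141 and 162 CPM to 91.5, 86.8 and 68.4 CPM, or by 0.86 on the log2 scale (SE 0.097, adjusted p = 2.49e-06). Cox8a had the highest level per length of all members in Th1, at 1191 ± 246 TPM. Its CPM values were 247, 260 and 166 in Th1 and 148, 147 and 113 in ALX-5407 libraries, so the groups came near each other but did not overlap (log2 fold change -0.72, SE 0.13, adjusted p = 0.000325).

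Cox7b (log2 fold change -0.58, adjusted p = 3.49e-05) and Cox7a2l, a factor that joins complexes III and IV (-0.35, adjusted p = 0.000490), were lower too. The call of Cox7a2l was lost with a length term (adjusted p = 0.118) and on the TPM scale (adjusted p = 0.0597). Cox7a2 was at 79.3, 80.6 and 125 CPM in Th1 and 81.0, 79.2 and 62.9 CPM in ALX-5407 libraries, with overlap. Its call (adjusted p = 0.0489) rested on Th1 replicate 3, without which the log2 fold change was -0.12 (adjusted p = 0.311), and was lost without any ALX-5407 library as well (adjusted p = 0.0521, 0.0629 and 0.237 without replicates 1, 2 and 3). It was lost under 6 other settings too, among them DESeq2 (adjusted p = 0.233) and limma-voom (0.0646). Cox4i1, Cox6a1 and Ndufa4, a former complex I name whose product belongs to complex IV, were not called, with log2 fold changes of -0.048, 0.063 and -0.050 that changed sign under some alternatives.

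Complex V holds a catalytic head, a stalk and a membrane part. Of 17 tested genes 10 were lower and 1 was higher, with a median of -0.36, the lowest of the 5 complexes. Atp5o, a stalk subunit gene, is annotated as a pair of overlapping genes, and the one that was not tested took no count in any library. The catalytic pair Atp5a1 and Atp5b was not lower. Atp5b was at 1030 to 1187 CPM in Th1 and 1096 to 1142 CPM in ALX-5407 libraries (log2 fold change 0.018, adjusted p = 0.861), and Atp5a1 rose from 700 ± 3.86 to 786 ± 1.98 CPM (SD, n = 3). The log2 fold change of Atp5a1 was 0.17 (SE 0.066, adjusted p = 0.0453), and its call was lost under 8 of the other settings named below and without any single library but Th1 replicate 3. The gamma subunit gene Atp5c1, the rotor shaft, fell from 273 ± 19.7 to 206 ± 2.80 CPM (log2 fold change -0.41, adjusted p = 0.000213). The stalk gene Atp5h fell from 106, 120 and 108 CPM to 74.5, 75.9 and 72.8 CPM (-0.58, adjusted p = 7.61e-06).

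All 4 genes of small membrane subunits (Atp5k, Atp5mpl, Atp5j2 and Atp5l) were lower, with a median of -0.55. Atp5k, the e subunit at the interface of ATP synthase dimers, was at 27.9, 32.4 and 16.1 CPM in Th1 and 15.6, 13.7 and 8.61 CPM in ALX-5407 libraries. The gap between the groups was narrow, at a log2 fold change of -1.01 (SE 0.21, adjusted p = 0.000994), and Th1 replicate 3 lay far below its group. Atp5g1, Atp5g2 and Atp5g3 encode the same mature c subunit of the rotor ring with different targeting sequences. Atp5g2 fell from 218, 231 and 230 CPM to 156, 146 and 136 CPM (log2 fold change -0.64, SE 0.073, adjusted p = 2.78e-06). Atp5g1 (0.023, adjusted p = 0.861) and Atp5g3 (-0.22, adjusted p = 0.0671) were not called, though Atp5g3 passed under 6 of the other settings. By TPM, Atp5g2 gave 60.0% ± 3.51 of the c subunit transcripts in Th1 and 52.3% ± 0.684 in ALX-5407 libraries. Atp5g3 gave 35.4% ± 3.87 and 41.4% ± 1.01, and Atp5g1 4.59% ± 0.672 and 6.31% ± 0.402 (SD, n = 3). These shares rest on deposited gene lengths of 1675 (Atp5g2), 2181 (Atp5g3) and 4912 bases (Atp5g1), whereas coding lengths were 438, 423 and 408 bases. Without division by length, the Th1 means were 226, 175 and 50.7 CPM. By CPM the shares differed by -8.24, 4.67 and 3.57 percentage points (ALX-5407 minus Th1). Close copies cover 100% of the Atp5g2 and 69.0% of the Atp5g1 transcript.

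**Figure D3:**
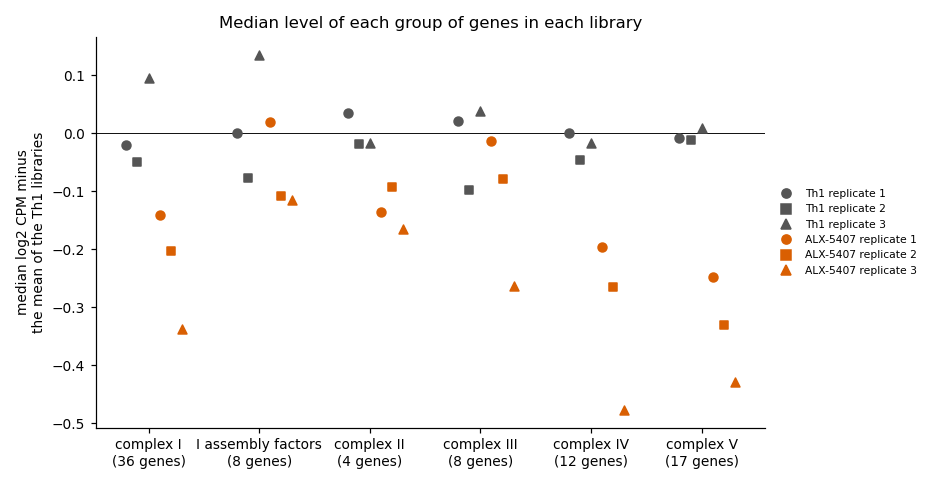
Median over the genes of each group of log2 CPM minus the mean of the Th1 libraries (vertical axis), for each of 3 Th1 libraries (grey) and 3 ALX-5407 libraries (orange), marker shapes giving the replicate number. In complexes I, II, IV and V all ALX-5407 libraries lie below all Th1 libraries, as low as -0.48 in complex IV, while in complex III and the assembly factors the groups overlap.

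The summed TPM of complex IV went from 4799 ± 103 to 4074 ± 340, of complex III from 1683 ± 94.9 to 1555 ± 73.8, of complex I from 4142 ± 224 to 3969 ± 263 and of complex V from 4021 ± 64.3 to 3917 ± 74.0, and that of complex II from 633 ± 17.1 to 681 ± 6.26 (SD, n = 3). Differences in TPM stand 0.18 (log2) above those in CPM. No test was run on these sums.

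The tissue isoforms were low throughout, and 4 of 8 could be tested. Cox6a2 (chr7:128205435-128206387, minus strand) was at 0.154, 0.765 and 0.487 CPM in Th1 and 3.57, 3.16 and 3.74 CPM in ALX-5407 libraries, from 5, 24 and 15 counts and 126, 118 and 131 counts. Every ALX-5407 library held several times the highest Th1 level, and the log2 fold change of 2.89 (SE 0.36, adjusted p = 6.67e-06) was the highest of all members, a 7.43-fold difference. It was 2.46 to 3.43 as single libraries were left out. Cox6a2 shares 70 exon bases with Itgad on the opposite strand, but Itgad took 0 to 2 counts in each library. Its ubiquitous partner Cox6a1 was at 152 to 179 CPM in Th1 and 145 to 187 CPM in ALX-5407 libraries and was not called (adjusted p = 0.619), but it was higher with a length term (log2 fold change 0.36, adjusted p = 0.00176) and on the TPM scale (0.24, adjusted p = 0.0257). By TPM, Cox6a2 made up 0.0965%, 0.439% and 0.329% of COX6A transcripts in Th1 and 1.94%, 1.72% and 2.59% in ALX-5407 libraries, and remained the minor form.

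The other tested isoforms were lower. Cox7a1 was at 4.08, 3.70 and 4.19 CPM in Th1 and 1.95, 1.69 and 1.23 CPM in ALX-5407 libraries (log2 fold change -1.30, SE 0.22, adjusted p = 0.000162). Cox4i2, known from lung and from oxygen sensing, was at 2.98, 1.82 and 2.24 CPM against 0.934, 1.53 and 0.684 CPM (-1.16, SE 0.32, adjusted p = 0.00692), and without Th1 replicate 1 its adjusted p was 0.0554. Cox6b2, best known from testis, fell from 5.57 ± 0.619 to 3.23 ± 0.699 CPM (-0.79, SE 0.19, adjusted p = 0.00275). As shares of their subunit by TPM, Cox7a1 went from 7.14% ± 1.40 to 3.68% ± 0.379 and Cox4i2 from 2.00% ± 0.383 to 0.925% ± 0.307, whereas Cox6b2 was at 2.39% ± 0.290 and 2.44% ± 0.434 (SD, n = 3), since its partner Cox6b1 was lower as well. Ndufa4l2 (0, 4 and 1 counts against 11, 0 and 10) and Cox8b (4 counts in a single Th1 library) were too low to test, and Cox7b2 and Cox8c took no count in any library. The 6 striated muscle markers summed to 0.574 to 0.921 CPM in Th1 and 0.453 to 1.10 CPM in ALX-5407 libraries, and Acta1, Myh4 and Actc1 were at 0.

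Gene length moved with these results. Over the 85 tested ubiquitous members the log2 fold change and the log2 coding length had a Pearson correlation of 0.42 and a Spearman correlation of 0.37, across genes of the same 6 libraries. With the log2 gene length of the deposited table, which the fit below uses, these were 0.30 and 0.27. Members with a coding length under 500 bases (51 tested) had 29 lower and a median of -0.35, and longer members (38 tested) had 16 lower and a median of -0.069. The same trend ran through all protein-coding genes tested. Of 1111 short ones 36.9% were lower, with a median of -0.18, and of 11330 longer ones 21.9% were lower, with a median of 0.074. The 56.9% of short members and 42.1% of longer members called lower were each above those shares. Within these classes members and other genes were not matched for length. In bins of coding length from 0, 300, 500, 750, 1000 and 1500 bases, ubiquitous members had medians of -0.48, -0.27, -0.086, -0.13, -0.068 and 0.12. All protein-coding genes tested had -0.22, -0.18, -0.056, 0.0099, 0.042 and 0.12 in the same bins. By complex, 9 of 20 short and 8 of 16 longer complex I genes were lower, against 3 of 5 and 0 of 3 in complex III, 7 of 11 and 0 of 1 in complex IV and 7 of 10 and 3 of 7 in complex V.

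**Figure D4:**
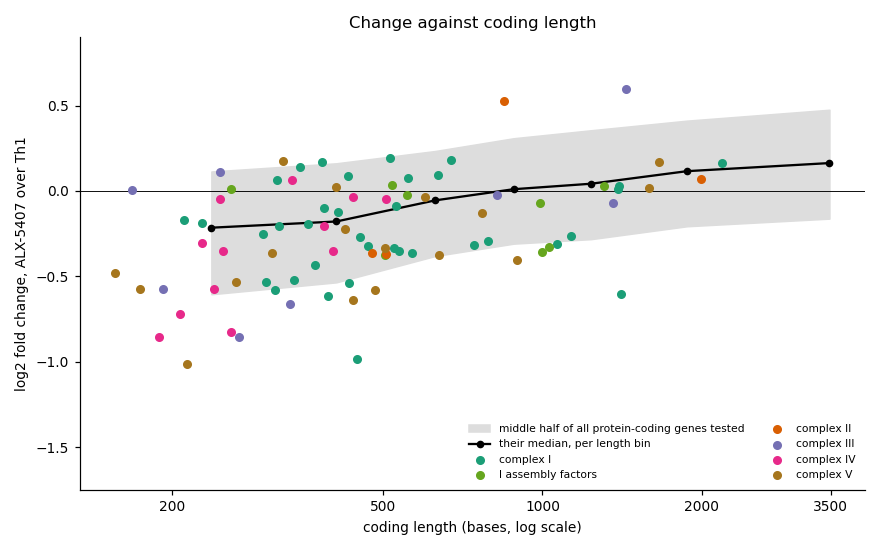
Log2 fold change (vertical axis) against coding length in bases (log scale) for the 85 tested ubiquitous members, coloured by complex. The black line and grey band are the median and the middle 50% of all protein-coding genes tested, per length bin, and run from -0.22 below 300 bases to 0.16 from 2500 bases on, with the 19 ubiquitous members below 300 bases at a median of -0.48.

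A fit with a per-library term for gene length gave 38 members lower, 37 of them among the 45, and 11 higher, with 23.4% and 23.0% of all genes tested. The members' median was then -0.14, that of complex I -0.024, of complex IV -0.12 and of complex V -0.28, and that of complex III turned positive (0.064). Sdhb (0.60), Uqcrc1 (0.53) and Cox6a2 stayed higher, and Uqcrh (-0.65), Cox7c (-0.64), Cox6b1 (-0.53) and Atp5k (-0.70) stayed lower. The complex I genes called higher in this fit were Ndufa5, Ndufa8, Ndufa11, Ndufb6, Ndufs7 and Ndufs8. The fit cannot tell a length effect of the libraries from a change of short genes in the cells, and this was not tested further.

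**Figure D5:**
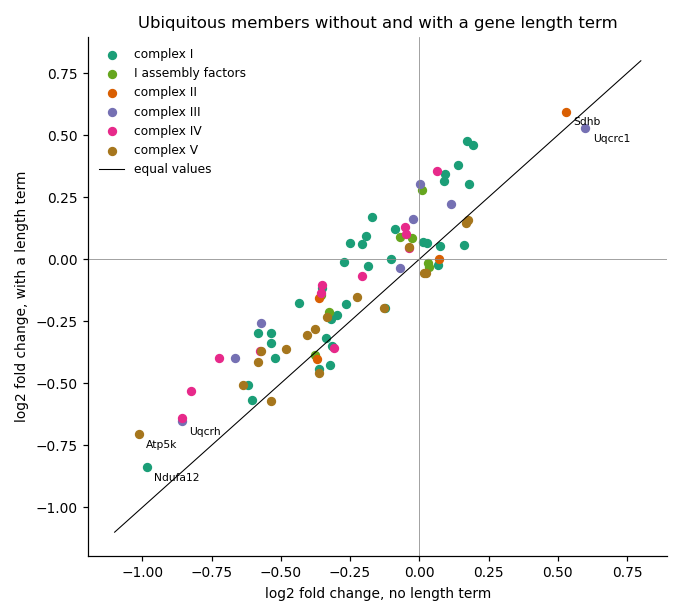
Log2 fold change of the 85 tested ubiquitous members without (horizontal axis) and with (vertical axis) a per-library term for gene length, coloured by complex, with the line of equal values. Most members below 0 move up towards it with the term, while Ndufa12, Uqcrh and Atp5k stay below -0.6 and Sdhb and Uqcrc1 stay above 0.5.

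Close copies were a further limit of counting. For 14 tested members other annotated genes covered 50% or more of the transcript at 95% identity or more, and 11 of these were lower, with a median of -0.39. The median log2 ratio of their mean CPM was -0.39 alone and -0.38 with the copies' counts added. The 75 tested members without such copies had 34 lower and a median of -0.19. How reads with several matches were counted is not given in the sources used here.

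Other lists of mitochondrial genes stand beside 24.5% higher and 23.2% lower among all genes tested. For protein-coding genes with a coding length from 500 bases, these shares were 31.1% and 21.9%. Of 78 mitochondrial ribosomal protein genes, which serve translation inside the organelle, 77 were tested, with a median of -0.020. Of these, 21 were higher (27.3%) and 23 lower (29.9%), near the shares of all genes tested. Among 20 markers of mitochondrial mass, 8 were higher (40%) and 3 lower (15%), with a median of 0.048. The citrate synthase gene Cs rose from 289 ± 15.7 to 405 ± 14.5 CPM (adjusted p = 3.52e-05) and the chaperone gene Hspa9 (log2 fold change 0.48) and the import pore gene Tomm40 (0.47) were higher, while Slc25a4, an ADP/ATP carrier (-0.50), Hspe1 (-0.54) and Timm44 (-0.35) were lower. Of 18 genes for electron carriers and coenzyme Q synthesis 6 were higher (33.3%) and 2 lower (11.1%), with a median of 0.097. Cyc1, Pdss2 (0.60) and Coq2 (0.37) were among the higher and Etfdh (-0.22) and Coq9 (-0.21) were the lower ones.

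Of 15 regulators of respiratory chain gene expression 14 were tested, and 10 were higher (71.4%) and 1 lower (7.14%), with a median of 0.30. Pprc1, a coactivator of the PGC-1 family, rose from 54.6 ± 1.05 to 77.8 ± 3.67 CPM (adjusted p = 2.42e-05), and the mitochondrial RNA polymerase gene Polrmt (0.59) and Myc (0.57) were higher. Hif1a was lower (-0.19, adjusted p = 0.0264). Of 41 assembly factors outside the rule 39 were tested, with 7 higher (17.9%), 7 lower (17.9%) and a median of 0.11. Both shares were below those of all genes tested. Lrpprc, which stabilizes mitochondrial mRNA (0.48), Cox15 (0.41) and Taco1 (0.55) were higher, and the copper chaperone gene Sco1 (-0.84), Ttc19 (-0.70) and Pet100 (-1.03) were lower.

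Of the 13 subunit genes of mitochondrial DNA 12 were tested, and 8 were lower (66.7%) and 2 higher (16.7%), with a median of -0.53. All genes of the mitochondrial chromosome took 2.67% to 3.12% of counts in the Th1 and 1.94% to 2.05% in the ALX-5407 libraries. mt-Co1, the catalytic subunit of complex IV, was at 18192, 20485 and 18203 CPM in Th1 and 11681, 11406 and 11808 CPM in ALX-5407 libraries, with no overlap and a log2 fold change of -0.70 (SE 0.071, adjusted p = 7.23e-07). mt-Cytb of complex III fell by 1.17, mt-Co2 by 1.77 and mt-Atp6 by 2.23 on the log2 scale, and mt-Nd3 rose by 1.13 and mt-Nd4l by 0.70. Levels within this genome were very uneven, with mt-Co2 at 48.9 ± 13.5 CPM in Th1 beside mt-Co1 at 18960 ± 1321 CPM (SD, n = 3). Nuclear copies of mitochondrial DNA and the treatment of reads with several matches can change such counts, and this was not tested.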

How the data were processed

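The authors deposited raw counts, whole numbers of reads per gene and library without normalization, with gene names, lengths and biotypes. The submitters' processing notes name fastp, HISAT2 2.0.5, featureCounts 1.5.0-p3 and mm10. Strand setting, annotation release and treatment of multi-mapped reads are not given in the sources used here. The labels describe capture of mRNA on poly-T beads and the study's methods rRNA depletion.

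Counts of the 6 libraries (30801753 to 36727788 each, which for genes of few counts limits the precision) were fitted with edgeR 4.0.16 (filterByExpr, TMM factors, quasi-likelihood test, two-sided) in R 4.3.3 over 15938 genes, with Benjamini-Hochberg adjustment over all of them and a threshold of 0.05. Alternatives were DESeq2 1.42.0, limma-voom (limma 3.58.1), other scalings and filters, terms for gene length and GC content, a replicate block and leaving out each library. The length and GC term and the TPM scaling were added after the data were seen. TPM used the length column of the file. Annotation facts came from GENCODE M21 (GRCm38), in which all 94 members were found, 88 with the same start and end. Copies were sought with BLAST 2.17.0 (95% identity over 100 bases). Overlaps with genes on the opposite strand were noted, and without strand their reads cannot be told apart.

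Members and gene lists were chosen with earlier results of these data known. Named were members past a log2 fold change of 1, tissue isoforms and their partners, Cox7a2l, the Sdh genes, selected core subunits, the alpha, beta and c subunit genes, and in each group and direction the 3 called members with the smallest p, likewise up to 3 genes of each other list. Ndufv2, Ndufs3, Uqcrq, Uqcr11, Atp5mpl, Atp5j2, Atp5l, mt-Co1 and the complex I genes higher with a length term were named after their values were seen. Tested on simulated counts of 3 against 3 libraries, the fit recovered 165 of 191 changed genes (86.4%) among 15670, with 6 false calls. These simulated counts held no trend with gene length and the same dispersion for every gene. The false calls therefore do not cover a length trend such as the data show. The 191 changed genes among 15670 stand beside 3695 lower and 3910 higher genes among the 15938 tested here. Recovery and false calls with so many called genes were not tested. The 86.4% is not split by size of fold change, so it does not give the recovery at the members' median of -0.26. Same-numbered libraries did not deviate together (correlations -0.0084, 0.0036 and 0.063), so no block was used.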

Additional observations from a re-analysis of the deposited data

How the results depend on the processing

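Of the counts, medians and isoform shares under other settings, 90 values stayed within 1.5 times the count or within the spread between replicates, and 38 moved further. With a library left out 85 values stayed within these limits and 5 moved further. With a length term, 11 members were higher and 1 was past the fold threshold, and the medians were -0.14 for all members, -0.024, -0.079, 0.064, -0.12 and -0.28 for complexes I to V. With the length term and the replicate block the values were 12 and 1, with medians -0.13, -0.025, -0.079, 0.069, -0.11 and -0.28. With a length and GC term they were 8 and 2, with medians -0.14 and, for complexes I to IV, -0.033, -0.084, 0.085 and -0.14. With TPM scaling 18 members were higher, 25 lower and 2 past the fold threshold, with medians -0.085 for all members, -0.051, 0.032, 0.13, -0.15 and -0.18 for complexes I to V and 0.13 for assembly factors. The complex II median was -0.20 with upper-quartile factors and -0.19 over protein-coding genes alone. At a log2 threshold of 0.58, 17 members passed. By CPM the shares of Cox4i2 and Cox7a1 differed by -0.55 and -2.06 percentage points (ALX-5407 minus Th1). The cause of these shifts was not tested beyond the construction of each alternative.

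The replicate block alone, with numbers that do not pair the libraries (and not every library correlated best with its own number), gave 49 members lower and 4 higher. DESeq2 gave 47 and 4, and limma-voom 43 and 4. With single libraries left out, the ranges were 3 to 7 members higher, 39 to 48 lower, 2 to 5 past the fold threshold, and medians of -0.28 to -0.20 for members, -0.27 to -0.14 for complex I, -0.12 to 0.035 for assembly factors, -0.17 to -0.10 for complex II, -0.12 to 0.0029 for complex III, -0.38 to -0.23 for complex IV and -0.41 to -0.29 for complex V. With an arm of 2 libraries the fit pools the spread of both groups.

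Some genes that were not called changed sign. Atp5b was at -0.035 with upper-quartile factors, -0.0021 with the stricter filter, -0.029 over protein-coding genes, -0.054 with a length term, -0.052 with block and length and -0.071 with length and GC. Atp5g1 was at -0.030, -0.023, -0.053, -0.053 and -0.043 with upper-quartile factors, protein-coding genes, length, block and length, and length and GC, and Ndufv1 at -0.024 and -0.018 with the first and second of these. With length, block and length, and length and GC, Cox4i1 was at 0.10, 0.10 and 0.031, Ndufa4 at 0.13, 0.13 and 0.22 (the last with an adjusted p of 0.0356), Sdha at -0.00080, -0.00034 and -0.0049 and Uqcrfs1 at 0.16, 0.17 and 0.16. With TPM scaling Cox4i1, Ndufa4 and Uqcrfs1 were at 0.13, 0.13 and 0.15. Without single libraries the ranges were -0.045 to 0.066 for Atp5b, -0.062 to 0.11 for Atp5g1, -0.10 to 0.015 for Cox4i1, -0.0078 to 0.18 for Cox6a1, -0.11 to 0.027 for Ndufa4, -0.0092 to 0.083 for Ndufv1 and -0.11 to 0.019 for Uqcrfs1. The counts of Cox6a2, Cox4i2, Cox7a1 and Cox6b2 are few, and 5 members were too low to test, 3 of them with no count in any library.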
